A study of Mus musculus with 31 samples.

Results

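The mitosis genes described here are 41 genes that encode parts and regulators of the spindle, the kinetochore, the spindle checkpoint and cytokinesis. They were found by symbol in the annotation of the array's probes, and all 41 are among the 19938 genes measured. Their levels were read on 31 single-colour Affymetrix whole-transcript arrays, each hybridised with amplified RNA of 20000 double-sorted bone marrow cells of wild-type C57BL/6 mice. No treatment separates the groups, and all of them share that strain and genotype. The stem cell gates, all lineage-negative and positive for cKit and Sca1, comprised LT-HSC (long-term stem cells, n = 4, Flk2- CD48- CD150+), ST-HSC (short-term stem cells, n = 3, Flk2- CD48- CD150-), MPP2 (n = 3, Flk2- CD48+ CD150+), MPP3 (n = 3, Flk2- CD48+ CD150-) and MPP4 (n = 5, Flk2+). The myeloid gates were common myeloid progenitors (CMP, n = 3, lineage-negative, cKit+, FcγR-, CD34+), granulocyte-macrophage progenitors (GMP, n = 4, the same but FcγR+), pre-granulocytes (PreGr, n = 3, Mac1+ with intermediate Gr1) and granulocytes (Gr, n = 3, Mac1+ with high Gr1). The design text calls the replicates biological and says that stem cell and GMP arrays also served a related study as controls, but no animal, pool, sex or age is given, so p-values measure the spread between these samples.

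Entry into mitosis is driven by Cdk1 with its cyclins and by the Polo and Aurora kinases. The kinetochore ties each chromosome to spindle microtubules, and checkpoint kinases hold back the anaphase-promoting complex (APC/C) until every kinetochore is attached. The transcripts of these proteins accumulate late in the cell cycle of dividing cells and are kept low in resting cells, so in marrow they are known as marks of cycling progenitors. The samples are bulk RNA, in which fewer dividing cells and less of a transcript per cell cannot be told apart.

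Many mitotic promoters carry a cell cycle genes homology region (CHR, here searched as TTTGAA or TTCGAA) and CCAAT boxes, so these letters were looked for on both strands of RefSeq windows from 250 bases before to 50 after each start (build GRCm38.p6). TTCGAA reads the same on both strands, and a CCAAT match can share its last base with a CHR match. Windows were at hand for 33 of the 41 genes, 35 windows in all. The CHR letters occurred in 29 of the 35 windows (82.9%) and in 19.2% of all 32851 promoter windows. CCAAT occurred in 27 of the 35 (77.1%), against 37.4% of all windows. Both occurred together in 25 of the 35 (71.4%), against 7.52%, and the CHR letters lay in the last 100 bases in 27 of the 35 (77.1%), against 5.31%. The E2F-type letters GCGGGAA occurred in 0 of the 35 windows and in 4.6% of all windows. These are matches of letters, not measured sites.

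A few windows are shown because their genes span the results below: Kif11, Bub1 and Hmmr are among the genes with the largest differences between ST-HSC and MPP2, Cenpa has the smallest, and Nuf2 has the largest although its window holds neither motif. Capitals mark CHR and CCAAT letters on either strand (TTCAAA and ATTGG are the reverse forms), and positions count from 1 at the first transcribed base, with negative numbers before it.
Kif11 (motor of the spindle, chr19:37376132-37376431, + strand): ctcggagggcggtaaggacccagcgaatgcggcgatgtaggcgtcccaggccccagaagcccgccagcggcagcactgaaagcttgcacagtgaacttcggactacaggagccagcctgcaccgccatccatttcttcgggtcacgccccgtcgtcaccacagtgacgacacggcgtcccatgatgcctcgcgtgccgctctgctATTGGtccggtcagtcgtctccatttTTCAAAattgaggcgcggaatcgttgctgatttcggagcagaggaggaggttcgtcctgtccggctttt
Bub1 (checkpoint kinase, chr2:127831810-127832109, - strand): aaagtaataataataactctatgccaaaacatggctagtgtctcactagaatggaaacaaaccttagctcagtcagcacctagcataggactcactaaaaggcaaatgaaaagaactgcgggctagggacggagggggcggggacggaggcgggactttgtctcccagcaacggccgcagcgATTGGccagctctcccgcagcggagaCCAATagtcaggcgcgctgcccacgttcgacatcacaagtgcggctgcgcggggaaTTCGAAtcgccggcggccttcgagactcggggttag
Hmmr (spindle assembly factor, chr11:40733388-40733687, - strand): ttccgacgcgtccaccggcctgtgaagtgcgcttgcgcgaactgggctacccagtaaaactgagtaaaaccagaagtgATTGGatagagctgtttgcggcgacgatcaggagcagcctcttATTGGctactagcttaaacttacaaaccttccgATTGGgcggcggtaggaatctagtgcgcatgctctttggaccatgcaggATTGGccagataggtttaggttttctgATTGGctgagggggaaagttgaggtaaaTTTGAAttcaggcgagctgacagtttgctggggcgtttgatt
Cenpa (centromeric histone, chr5:30666636-30666935, + strand): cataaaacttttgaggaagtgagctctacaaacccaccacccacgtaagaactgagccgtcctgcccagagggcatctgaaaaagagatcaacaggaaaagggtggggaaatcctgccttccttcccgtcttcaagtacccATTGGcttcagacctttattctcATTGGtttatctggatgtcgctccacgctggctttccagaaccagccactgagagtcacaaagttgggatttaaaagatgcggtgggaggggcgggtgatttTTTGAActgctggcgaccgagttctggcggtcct
Nuf2 (kinetochore coiled coil, chr1:169531415-169531714, - strand): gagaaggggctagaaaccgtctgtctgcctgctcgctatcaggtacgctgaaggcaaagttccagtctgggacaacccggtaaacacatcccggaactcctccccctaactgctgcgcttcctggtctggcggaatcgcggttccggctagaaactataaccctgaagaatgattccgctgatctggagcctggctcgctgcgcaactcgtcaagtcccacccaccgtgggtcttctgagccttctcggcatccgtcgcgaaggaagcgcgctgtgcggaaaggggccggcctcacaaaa
The CHR letters began at -19 in Kif11, at 15 in Bub1, at 9 in Hmmr and at 17 in Cenpa. The 27 genes with CHR letters differed between MPP2 and ST-HSC by a median of 2.14 on the log2 scale (range 0.75 to 3.17). The 6 genes without them (Birc5, Cenpe, Mad2l1, Nek2, Nuf2 and Nusap1) differed by a median of 2.54 (range 1.29 to 3.26). The 2 ranges overlapped widely, and no test was made of them.

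The deposited log2 arrays fall into 5 sets that the labels do not name, found from array medians and from values shared exactly by pairs of arrays. Set 1 holds LT-HSC 1 to 3, set 2 holds LT-HSC 4, MPP3 3, MPP4 4, MPP4 5 and GMP 4, set 3 holds ST-HSC, MPP2 and the other MPP3 arrays, set 4 holds MPP4 1 to 3 and CMP, and set 5 holds GMP 1 to 3, PreGr and Gr. Levels are therefore given after quantile normalization, and differences come from limma on these values with the array set as a block (the set-adjusted fit, log2 difference ± SE). A gene was called higher or lower only where the Benjamini-Hochberg adjusted p was under 0.05 in the same direction in this fit and in a limma fit without sets. With sets adjusted, LT-HSC 4 is the one LT-HSC array that ties LT-HSC to the other populations. LT-HSC 1 to 3 are alone in set 1, so they add nothing to the size of set-adjusted differences from LT-HSC. The errors of those differences come from the spread pooled over all populations. Set 2 is joined to set 3 only through MPP3, to set 4 only through MPP4 and to set 5 only through GMP. Across genes, pairs of arrays from the same population had correlations of 0.961 to 0.996. Transcripts of the gate antigens mostly followed the gates: Slamf1, which encodes CD150, was 8.65 ± 0.56 (SD, n = 4) in LT-HSC and 5.12 ± 0.36 (SD, n = 3) in ST-HSC. The Flk2 transcript Flt3 was 10.02 ± 0.11 (SD, n = 3) in ST-HSC, above LT-HSC (8.15 ± 0.29, SD, n = 4), although both gates are Flk2-. The sorted antigen is the protein, and the transcript is not a check of the gate.

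The 41 genes moved as 1 block across the populations. Each correlated with the mean of the other members at r = 0.71 (Kif23) to 0.98 (Tpx2) over the 31 arrays, with a median of 0.92; these points share arrays, sets and scaling, and the values are a description. The mean deviation of the 41 genes from their average over the 9 populations was lowest in ST-HSC (-1.40 ± 0.09, SD, n = 3). LT-HSC (-0.53 ± 0.29, SD, n = 4) and Gr (-0.35 ± 0.44, SD, n = 3) came next, and their arrays overlapped. MPP4 (0.11 ± 0.19, SD, n = 5), MPP3 (0.21 ± 0.10, SD, n = 3) and CMP (0.28 ± 0.01, SD, n = 3) followed, each overlapping its neighbour in this order. GMP (0.40 ± 0.09, SD, n = 4) and PreGr (0.52 ± 0.07, SD, n = 3) overlapped each other, and MPP2 stood highest (0.76 ± 0.07, SD, n = 3). The lower end was the same under 2 scalings: ST-HSC had the lowest mean of the 9 populations in 39 of the 41 genes after quantile normalization and in all 41 after centring arrays on their medians. The upper end was not. MPP2 was the highest population for 26 genes and PreGr for 10 after quantile normalization, but MPP2 for 12 and PreGr for 20 after median centring, where the mean deviation of MPP3 turned to -0.09. MPP2 and PreGr lie in different array sets, so population and set cannot be told apart for their order. The same holds for the order of ST-HSC and LT-HSC in these means, since they share no array set. Within array set 3, all 41 genes were lower in ST-HSC than in MPP2 and than in MPP3.

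**Figure D1:**
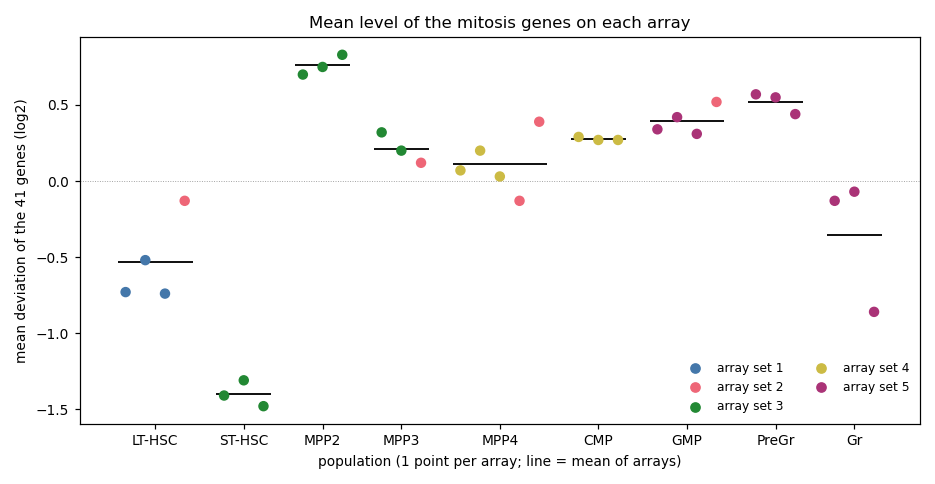
Mean log2 deviation of the 41 mitosis genes (vertical axis) on each of the 31 arrays, grouped by population and coloured by array set; lines are the means of the arrays of a population. The 3 ST-HSC arrays lie between -1.48 and -1.31, below every other array, LT-HSC 4 (-0.13) lies above the other LT-HSC arrays, and Gr 3 (-0.86) lies below the other Gr arrays.

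The gene with the widest range of population means in each role group is given array by array. Among the kinesins, Kif11, the motor that pushes spindle poles apart, read 9.15, 9.39, 9.0 and 10.52 in LT-HSC and 8.32, 8.09 and 7.74 in ST-HSC. It read 11.09, 11.29 and 11.07 in MPP2, 10.83, 10.53 and 10.64 in MPP3, and 10.40, 10.55, 10.24, 9.90 and 10.98 in MPP4. In CMP it read 10.48, 10.46 and 10.50, in GMP 10.22, 10.34, 10.14 and 10.91, in PreGr 10.50, 10.56 and 10.60, and in Gr 9.61, 9.76 and 8.88. The ST-HSC arrays lay below all others and the MPP2 arrays above all others. Among the spindle assembly factors, Hmmr read 7.29, 7.36, 7.11 and 8.87 in LT-HSC and 6.57, 6.72 and 6.43 in ST-HSC. It read 9.58, 9.75 and 9.68 in MPP2, 8.86, 8.99 and 8.22 in MPP3, and 8.20, 8.52, 8.17, 7.47 and 9.18 in MPP4. CMP gave 8.41, 8.40 and 8.65, GMP 8.63, 8.83, 8.5 and 9.09, PreGr 8.46, 8.79 and 8.45, and Gr 8.34, 8.21 and 6.86. Again ST-HSC lay below and MPP2 above every other array, and LT-HSC 4 and Gr 3 stood apart from the arrays of their own population.

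In the kinetochore, Nuf2, a subunit of the NDC80 complex that binds microtubules, read 8.52, 8.93, 8.57 and 9.38 in LT-HSC and 6.89, 7.28 and 7.60 in ST-HSC. It read 10.45, 10.69 and 10.40 in MPP2, 9.87, 9.67 and 9.61 in MPP3, and 9.49, 9.79, 9.24, 9.11 and 9.76 in MPP4. CMP gave 9.54, 9.74 and 9.49, GMP 9.63, 9.60, 9.52 and 9.96, PreGr 9.67, 9.60 and 9.61, and Gr 9.41, 9.15 and 8.05. The same pair of populations bounded the range without overlap. Bub1, which loads checkpoint proteins on unattached kinetochores, read 8.03, 8.57, 8.15 and 8.97 in LT-HSC and 6.91, 6.65 and 6.58 in ST-HSC. It read 9.83, 9.70 and 10.07 in MPP2, 9.78, 9.43 and 9.37 in MPP3, and 9.40, 9.65, 9.49, 8.75 and 9.70 in MPP4. CMP read 9.27, 9.43 and 9.52, GMP 9.91, 9.95, 9.75 and 10.20, PreGr 9.60, 9.77 and 9.70, and Gr 8.6, 8.93 and 7.4. ST-HSC lay below all other arrays, while the highest arrays of GMP and MPP2 overlapped.

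Birc5, the survivin subunit of the chromosomal passenger complex, read 8.92, 9.18, 9.06 and 9.17 in LT-HSC and 8.28, 8.25 and 7.81 in ST-HSC. It read 10.45, 10.78 and 10.76 in MPP2, 10.24, 10.06 and 9.56 in MPP3, and 9.59, 9.83, 9.63, 9.42 and 9.70 in MPP4. CMP gave 9.96, 10.14 and 10.08, GMP 10.47, 10.47, 10.50 and 10.07, PreGr 10.85, 10.86 and 10.70, and Gr 10.14, 9.96 and 9.26. For Birc5 the PreGr arrays were as high as those of MPP2, and ST-HSC was again below all others. Prc1, which bundles microtubules of the spindle midzone, read 8.47, 8.39, 8.21 and 9.06 in LT-HSC and 7.12, 7.88 and 6.65 in ST-HSC. It read 10.21, 9.79 and 10.34 in MPP2, 9.50, 9.05 and 8.65 in MPP3, and 8.98, 9.11, 9.15, 8.85 and 9.18 in MPP4. In CMP it read 9.25, 9.25 and 9.39, in GMP 9.05, 9.08, 9.12 and 9.37, in PreGr 9.66, 9.23 and 9.03, and in Gr 8.78, 8.74 and 7.88. MPP2 lay above all other arrays, and Gr 3 reached down to the highest ST-HSC array.

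Pbk, a kinase active in mitosis, read 8.76, 9.28, 8.92 and 8.94 in LT-HSC and 6.99, 7.23 and 6.61 in ST-HSC. It read 9.57, 9.30 and 9.33 in MPP2, 8.78, 8.81 and 8.95 in MPP3, and 9.05, 9.40, 9.30, 8.53 and 9.41 in MPP4. In CMP it read 9.73, 9.55 and 9.44, in GMP 9.59, 9.45, 9.54 and 9.60, in PreGr 9.59, 9.40 and 9.55, and in Gr 8.88, 8.54 and 7.69. The ST-HSC arrays lay below all others, with Gr 3 next, and all LT-HSC and MPP3 arrays lay below those of MPP2, CMP, GMP and PreGr. Top2a, which encodes topoisomerase II alpha and untangles sister chromatids, read 10.43, 10.63, 10.35 and 11.23 in LT-HSC and 9.69, 9.89 and 9.36 in ST-HSC. It read 11.71, 11.81 and 11.83 in MPP2, 11.60, 11.54 and 11.29 in MPP3, and 11.52, 11.54, 11.44, 11.28 and 11.73 in MPP4. In CMP it read 11.41, 11.50 and 11.42, in GMP 11.44, 11.42, 11.29 and 11.54, in PreGr 11.64, 11.60 and 11.46, and in Gr 10.65, 10.83 and 9.92. ST-HSC lay below all others, and MPP4 5 reached the MPP2 arrays. Top2a has 2 probes that name it alone, and their mean, in place of the brighter probe, left a difference between Gr and PreGr of -0.31 relative to all genes (limma adjusted p = 0.295), which was not called. The same change left -1.21 between ST-HSC and LT-HSC (adjusted p = 0.104), also not called. Between MPP3 and ST-HSC it left 1.0 relative to all genes (adjusted p = 0.00454 with sets), and the call, which needs both fits, was lost.

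**Figure D2:**
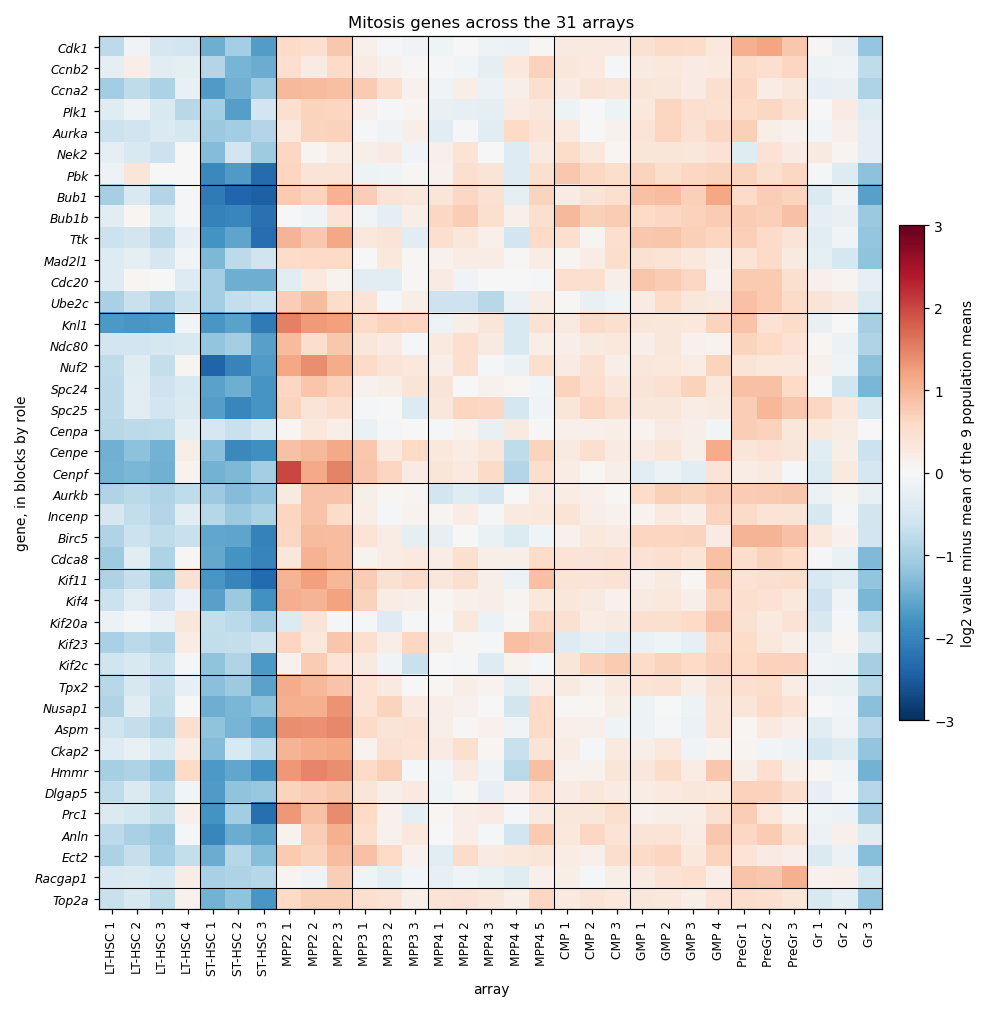
Log2 value of each of the 41 genes (rows, in blocks by role) on each of the 31 arrays (columns, grouped by population) minus the mean of the gene's 9 population means; red is above and blue below it. The ST-HSC columns are blue in all role blocks, the MPP2 columns are the reddest for 26 of the genes, and Gr 3 is bluer than Gr 1 and Gr 2.

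The 10 genes highest in PreGr were Cdk1, Ccnb2, Cdc20, Spc24, Spc25, Cenpa, Aurkb, Birc5, Kif2c and Racgap1. Cdk1, the kinase that starts mitosis, read 10.60, 10.73 and 10.34 in PreGr and 10.12, 10.05 and 10.36 in MPP2. Racgap1, a subunit of centralspindlin, read 9.23, 9.18 and 9.45 in PreGr and 8.46, 8.28 and 9.12 in MPP2. Cenpa read 9.87, 9.83 and 9.47 in PreGr and 9.2, 9.45 and 9.33 in MPP2. The 2 populations overlapped for Cdk1 and not for Racgap1 or Cenpa. Cdc20, the APC/C activator, read 9.61, 9.62 and 9.30 in PreGr and 8.48, 9.12 and 8.94 in MPP2. Spc25, an NDC80 complex subunit, read 9.54, 9.80 and 9.60 in PreGr and 9.47, 9.18 and 9.33 in MPP2, without overlap, as for Cdc20. For Ccnb2 (11.31, 11.25 and 11.38 against 11.26, 11.00 and 11.32), Spc24 (10.49, 10.49 and 10.19 against 10.22, 10.44 and 10.30), Aurkb (9.74, 9.76 and 9.80 against 9.26, 9.85 and 9.85) and Kif2c (8.76, 8.84 and 8.84 against 8.29, 8.93 and 8.57) the PreGr and MPP2 arrays overlapped. Nek2, a centrosome kinase, and Kif20a, a cytokinesis kinesin, were highest in GMP with Bub1: Nek2 read 8.25, 8.25, 8.23 and 8.33 there and Kif20a 8.44, 8.44, 8.56 and 8.81. MPP2 read 8.51, 7.98 and 8.10 for Nek2, spanning the GMP arrays, and 7.56, 8.35 and 7.93 for Kif20a, below them. Bub1b, the checkpoint protein BubR1, was highest with Pbk in CMP, at 10.34, 10.08 and 10.12, above the 9.35, 9.26 and 9.79 of MPP2.

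MPP2 differed from ST-HSC in every one of the 41 genes. All 41 were called higher in MPP2, where 2.89% of all genes were called higher and 4.02% lower, and for all 41 the lowest MPP2 array was above the highest ST-HSC array, which held for 11.9% of all genes. The median set-adjusted difference of the members was 2.17, against 0.03 over all genes. Both populations lie whole in array set 3, so the comparison is within 1 set. Leaving out any 1 of the 31 arrays left 40 or 41 members called.

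By role, the 8 kinetochore and centromere genes had a median difference of 2.50 between MPP2 and ST-HSC. Nuf2 differed by 3.26 ± 0.24 (limma adjusted p = 4.8e-09) and Knl1, the scaffold that recruits checkpoint proteins, by 3.17 ± 0.21 (adjusted p = 1.29e-09). Knl1 read 11.05, 10.83 and 10.78 in MPP2 and 7.8, 7.94 and 7.43 in ST-HSC, and its set-adjusted difference is 8.98-fold on the linear scale. At the other end Cenpa, the histone variant that marks centromeres, differed by 0.75 ± 0.11 (adjusted p = 5.1e-05), from 8.62, 8.47 and 8.66 in ST-HSC. The 6 checkpoint and APC/C genes had a median of 1.86, led by Bub1 (3.16 ± 0.26, adjusted p = 2.13e-08) and Ttk, the kinase that starts checkpoint signalling (2.89 ± 0.24, adjusted p = 2.41e-08). The APC/C activator Cdc20 (1.33 ± 0.16) and the ubiquitin-conjugating enzyme Ube2c (1.54 ± 0.17) also rose.

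The 6 spindle assembly genes had a median difference of 2.42, with Hmmr at 3.10 ± 0.31 (adjusted p = 3.21e-07) and Aspm, a spindle pole protein, at 2.80 ± 0.16 (adjusted p = 2.09e-10). Aspm lay between 9.96 and 10.04 in the 3 MPP2 arrays and read 7.39, 7.21 and 6.98 in ST-HSC. Among 5 kinesins (median 1.71) Kif11 rose by 3.10 ± 0.21 (adjusted p = 1.44e-09) and Kif20a, the smallest, by 0.84 ± 0.18 (adjusted p = 0.00335). The 4 cytokinesis genes had a median of 2.16, with Prc1 at 2.90 ± 0.24 and Racgap1 at 1.17 ± 0.17. The 4 chromosomal passenger genes, whose complex corrects wrong attachments, lay between 1.66 (Incenp) and 2.55 (Birc5 and Cdca8). The 7 kinases and cyclins had a median of 1.70, from Nek2 (1.29 ± 0.21) to Pbk (2.46 ± 0.23), and Top2a rose by 2.14 ± 0.16.

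MPP3 was higher than ST-HSC in 39 of the 41 genes, where 1.48% of all genes were called higher. The arrays did not overlap for any of the 41, which held in this direction for 8.61% of all genes. The median difference of the members was 1.77, against -0.01 over all genes, and 1.74 without the set term. The set-adjusted difference is the one within array set 3, which holds 2 of the MPP3 arrays, and there all 41 genes were higher by 0.42 to 2.89. Bub1 differed most (2.89 ± 0.29, limma adjusted p = 1.26e-06), then Kif11 (2.63 ± 0.24, adjusted p = 2.15e-07), Nuf2 (2.51 ± 0.27) and Knl1 (2.47 ± 0.24). Hmmr (2.35 ± 0.35), Ttk (2.23 ± 0.27) and the kinetochore motor gene Cenpe (2.23 ± 0.27) followed. Ccna2 (2.07 ± 0.18), which encodes the cyclin of S phase and early mitosis, Prc1 (2.06 ± 0.27), Birc5 (2.04 ± 0.18) and Top2a (1.93 ± 0.18) also rose. Top2a lost its call when the mean of its probes was used. Kif20a (0.63 ± 0.21, adjusted p = 0.114) and Cenpa (0.42 ± 0.12, adjusted p = 0.0618) were not called. On the values as deposited, with no set term, 20 members were called higher, among 60 of all genes. The comparisons of MPP2 and MPP3 share the ST-HSC arrays.

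**Figure D3:**
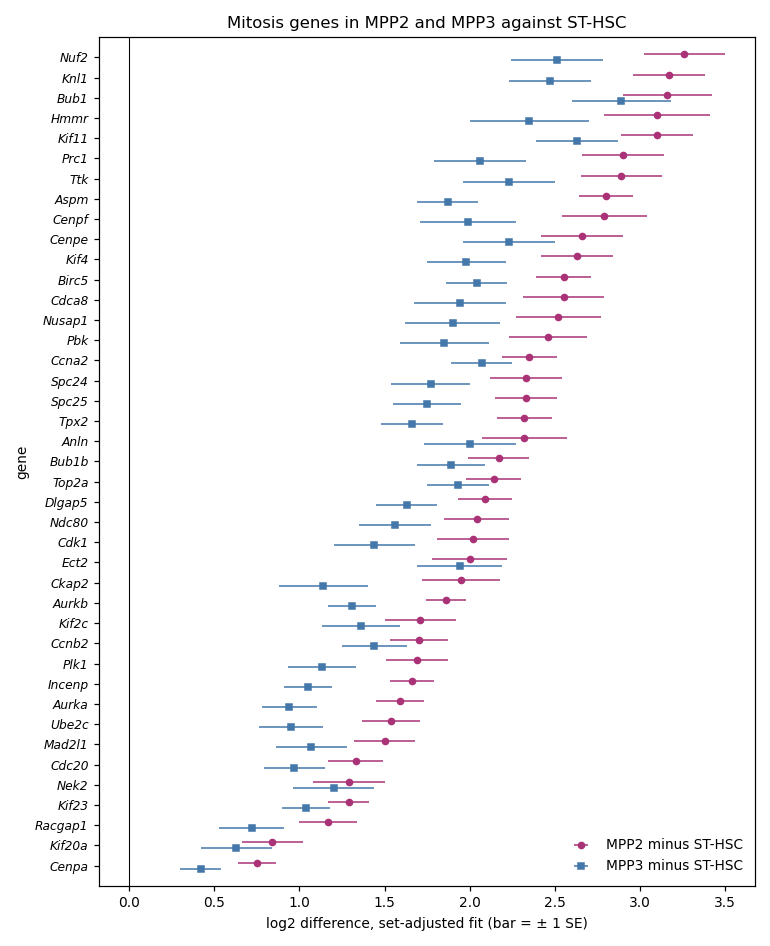
Log2 difference of each of the 41 genes (rows) between MPP2 and ST-HSC (circles) and between MPP3 and ST-HSC (squares) in the set-adjusted fit, with bars of 1 SE; both share the ST-HSC arrays. All circles lie between 0.75 and 3.26 and all squares between 0.42 and 2.89, with Nuf2 and Knl1 at the top and Cenpa at the bottom.

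Markers of other cells differed in the same samples. Primary granule genes (Mpo and others) averaged 9.22 to 10.69 over 5 genes in MPP3 against 7.14 to 7.34 in ST-HSC, and 4 of the 5 were called higher. Of 9 B and plasma cell markers 3, and of 7 T and NK cell markers 2, were called higher in MPP3 (means of 8.05 to 8.32 and 6.59 to 6.95, against 6.94 to 7.03 and 6.12 to 6.34 in ST-HSC). Of 9 eosinophil, basophil and mast cell markers 3 (Cpa3, Prg2 and Mcpt8) were higher in MPP3 as well, with means of 6.97 to 7.49 against 6.21 to 6.31, as was the monocyte marker F13a1. The megakaryocyte marker Ppbp and 5 of 8 stem cell genes were lower in MPP3, the latter with means of 7.77 to 8.04 against 8.56 to 8.89. In MPP2, 3 of 6 megakaryocyte markers, 4 of 9 eosinophil, basophil and mast cell markers and 2 of 7 erythroid markers were called higher than in ST-HSC, with Mpo, Jchain and the stem cell gene Slamf1, and 5 of 8 stem cell genes lower. MPP2 averaged 8.49 to 8.84 for the megakaryocyte list, 6.83 to 7.50 for the eosinophil, basophil and mast cell list and 7.51 to 7.8 for the erythroid list, against 7.84 to 8.16, 6.21 to 6.31 and 7.0 to 7.16 in ST-HSC. The part of such cells in the mitosis differences was not tested.

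Between MPP2 and MPP3 all 41 genes were higher in MPP2, by 0.06 to 0.93 with a median of 0.55, against 0.03 over all genes. For 31 of the genes the arrays did not overlap, which held for 7.05% of all genes in this direction and 5.48% in the other. Aspm was the 1 gene called (0.93 ± 0.18, limma adjusted p = 0.00774 with sets and 0.0486 without), where 0.160% of all genes were called higher. Its MPP3 arrays read 9.16, 8.98 and 9.04, below each of the MPP2 arrays given above. That call was lost in 24 of 31 fits with 1 array left out (adjusted p up to 0.131). Prc1 was next (0.84 ± 0.27, adjusted p = 0.153), and Ect2, which activates RhoA for the cleavage furrow, differed least (0.06 ± 0.25). Of the marker lists, 4 of 5 primary granule genes were called lower in MPP2 than in MPP3 (list median -2.04; means of 7.90 to 8.29 against 9.22 to 10.69), as was Thy1. The megakaryocyte list gave 3 of 6 higher (means of 8.49 to 8.84 against 7.15 to 7.60), and Slamf1 was higher too. The part of such cells in this comparison was not tested.

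ST-HSC was lower than LT-HSC in 16 of the 41 genes and higher in 0, where 0.296% of all genes were called lower. For 30 genes all ST-HSC arrays lay below all LT-HSC arrays, which held in this direction for 13.1% of all genes. The members' median difference was -1.62 with the set term and -0.84 without it, against 0.04 and 0.02 over all genes. With sets, ST-HSC is joined to LT-HSC 4 only through the MPP3 arrays, of which MPP3 3 is the one beside LT-HSC 4. The set-adjusted median rests on these single arrays and is larger in size than the direct comparisons with LT-HSC arrays given below. Hmmr fell by 3.01 ± 0.64 on the log2 scale (limma adjusted p = 0.0209), the largest difference in the set-adjusted fit, where LT-HSC 4, the array with the highest Hmmr of LT-HSC, is the reference. The fit without sets gave -1.08 for Hmmr (adjusted p = 0.0273), less than for Pbk (-2.03), Bub1b (-1.89) and Bub1 (-1.72). With LT-HSC 4 left out of that fit, Hmmr differed by -0.70 relative to the median of all genes (adjusted p = 0.0958) and was not called. Kif2c, a kinesin that takes microtubules apart (-2.0 ± 0.43, adjusted p = 0.0213), Nuf2 (-2.28 ± 0.50, adjusted p = 0.0214) and Aspm (-1.91 ± 0.34, adjusted p = 0.00763) also fell. Top2a (-1.86 ± 0.34), Pbk (-1.85 ± 0.47) and Birc5 (-1.66 ± 0.34) fell as well, and 3 of the 6 checkpoint and APC/C genes and 3 of the 5 kinesins were among those called.

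The smallest differences between ST-HSC and LT-HSC in the set-adjusted fit were not called. Ube2c differed by -0.10 ± 0.36, Cenpa by -0.13 ± 0.22, Plk1, the Polo kinase, by -0.22 ± 0.36, and the spindle pole kinase gene Aurka by -0.25 ± 0.30. Without the set term this order does not hold. Mean levels in LT-HSC and ST-HSC were 7.92 and 7.28 for Plk1 and 8.57 and 8.10 for Aurka. They were 7.83 and 7.84 for Ube2c and 8.46 and 8.58 for Cenpa. The Aurka arrays did not overlap, with 8.48 the lowest in LT-HSC and 8.23 the highest in ST-HSC. Ube2c read 7.65, 7.96, 7.74 and 7.98 in LT-HSC and 7.62, 7.91 and 8.0 in ST-HSC. Plk1 read 8.01, 8.22, 7.91 and 7.53 in LT-HSC and 7.35, 6.71 and 7.79 in ST-HSC. For both genes the arrays of the populations overlapped, and neither difference exceeded its error in the set-adjusted fit. Set against LT-HSC 4 alone, all 41 genes were lower in ST-HSC (median -1.18), and against LT-HSC 1 to 3, 37 were (median -0.70). Hmmr lost its call without any 1 of the ST-HSC arrays or without MPP3 1 (adjusted p up to 0.0522 by limma), and Pbk in 16 of 29 fits with 1 array left out. The count of called genes dropped to 3 without MPP3 1 and to 10 without ST-HSC 3. On the values as deposited, with no set term, nearly the whole array differed: 18416 of the 19938 genes were called higher in ST-HSC and 14 lower, with an all-gene median of 1.32. The members had a median of 0.28 there, below that of all genes, with 11 called higher and 2 lower. The stem cell markers that were called in this comparison, 3 of 8, were also lower in ST-HSC (means of 8.56 to 8.89 against 9.07 to 9.76 in LT-HSC), and their part in the result was not tested.

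**Figure D4:**
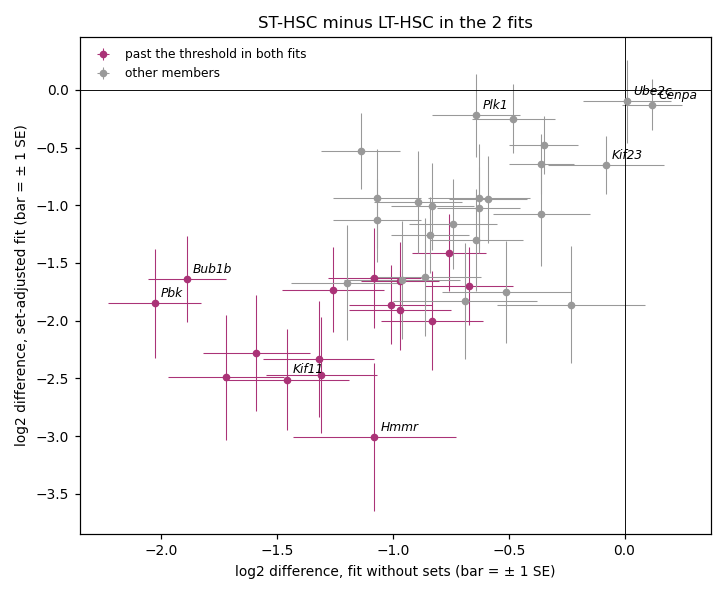
Log2 difference of each of the 41 genes between ST-HSC and LT-HSC in the fit without sets (horizontal axis) and in the set-adjusted fit (vertical axis), with bars of 1 SE; coloured points are the 16 genes past the threshold in both fits. All points lie below 0 on the vertical axis, from -3.01 (Hmmr) to -0.10 (Ube2c).

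MPP2 was higher than LT-HSC in 7 of the 41 genes and lower in 0, where 2.67% of all genes were called higher and 1.93% lower (member median 0.83, all genes 0.06). Aurkb, the kinase of the chromosomal passenger complex, read 8.09, 8.17, 8.08 and 8.23 in LT-HSC and 9.26, 9.85 and 9.85 in MPP2, a difference of 1.38 ± 0.25 (limma adjusted p = 0.00331). The LT-HSC arrays, LT-HSC 4 included, lay within a narrow band below all MPP2 arrays. Plk1 (1.47 ± 0.36, adjusted p = 0.0182), Ube2c (1.43 ± 0.36, adjusted p = 0.0191), Knl1 (1.42 ± 0.44, adjusted p = 0.0492), Spc24 (1.39 ± 0.43, adjusted p = 0.0495), Aurka (1.34 ± 0.30, adjusted p = 0.0105) and Incenp, the scaffold of that complex (1.01 ± 0.26, adjusted p = 0.0218), made up the rest. The MPP2 arrays lay above all LT-HSC arrays for 37 genes, which held for 18.9% of all genes, and the fit without sets called 37, where it called 4118 of the 19938 genes higher. Knl1 lost its call in 19 and Spc24 in 25 of 29 fits with 1 array left out, and without MPP3 2, where Ube2c and Incenp also lost theirs, the count was 3. On deposited values with sets Plk1 and Aurkb were called and the other 5 were not, and on median-centred arrays the count was 0 (Aurkb 0.81 relative to all genes, adjusted p = 0.0561).

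MPP3 was higher than LT-HSC in 1 gene, Aurkb (0.84 ± 0.21, limma adjusted p = 0.0197), where 2.80% of all genes were called higher and 1.75% lower. A count of 1 among the 41 does not exceed the share called higher. On deposited values with sets Aurkb stood at 0.40 relative to all genes (adjusted p = 0.158), and on median-centred arrays at the same value (adjusted p = 0.309), so the call was lost in both. The arrays of 26 genes lay above those of LT-HSC without overlap, which held for 13.3% of all genes. The member median was 0.29, and 29 genes passed in the fit without sets, which called 3120 of all genes higher. MPP4 was higher in 2 genes, Aurka (1.02 ± 0.22, adjusted p = 0.0104) and Aurkb (0.87 ± 0.18, adjusted p = 0.00941), where 0.938% of all genes were called higher and 1.19% lower. For 13 genes the MPP4 arrays lay above all LT-HSC arrays and for 0 below, against 6.72% and 6.20% of all genes. The member median was 0.25 in that comparison, and 28 genes passed without sets, among 2753 of all genes. On deposited values with sets neither Aurka (0.76 relative to all genes, adjusted p = 0.0858) nor Aurkb (0.66, adjusted p = 0.0741) was called, nor was either on median-centred arrays. Aurka read 8.48, 8.53, 8.69 and 8.6 in LT-HSC and 8.79, 9.09, 8.79, 9.71 and 9.52 in MPP4, so the arrays did not overlap. The call of Aurka was lost without MPP4 4 (adjusted p = 0.0715), which left 1 gene called, and 4 were called without Gr 3. The MPP3 count was 2 without ST-HSC 2 or ST-HSC 3 and 3 without Gr 3. Within set 2, 33 genes were higher in the 1 MPP3 array than in LT-HSC 4, and 31 in the 2 MPP4 arrays. The set-adjusted differences from LT-HSC are these same differences (medians 0.29 and 0.25), so this is not a second comparison.

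GMP was higher than LT-HSC in 5 genes, where 2.79% of all genes were called higher and 3.71% lower, with a member median of 0.70 against 0.03 over all genes. They were Aurkb (1.53 ± 0.21, limma adjusted p = 4.28e-05), Ect2 (1.39 ± 0.38, adjusted p = 0.0258), Plk1 (1.29 ± 0.31, adjusted p = 0.00928), Aurka (1.13 ± 0.25, adjusted p = 0.00567) and Incenp (0.99 ± 0.22, adjusted p = 0.00579). Plk1 read 8.68, 9.0, 8.86 and 8.82 in GMP, above every LT-HSC array. All 5 kept their calls in each of the 29 fits with 1 array left out, and without Gr 3 the count was 10. With sets, the difference is that of GMP 4 against LT-HSC 4, and neither array could be left out. Those fits therefore left the set-adjusted difference unchanged and altered only its error and the fit without sets. On median-centred arrays Ect2 was not called (1.27 relative to all genes, adjusted p = 0.0533). In array set 2, 38 of the 41 genes were higher in GMP 4 than in LT-HSC 4. That is the same estimate as the member median of 0.70 above, not a second comparison. Gr was higher than LT-HSC in 1 gene, Aurkb (0.78 ± 0.24, adjusted p = 0.0226), where 11.6% of all genes were called higher, and the member median was -0.07. That count is below the share over all genes. The Gr count was 2 without ST-HSC 2, ST-HSC 3 or Gr 1 and 4 without Gr 3. With deposited or median-centred values and the set term, Aurkb stood at 0.21 relative to all genes (adjusted p = 0.309 and 0.372) and was not called, and Ckap2, named here after its values were seen, was called lower (-1.40 in both, adjusted p = 0.0331 and 0.0326). The 6 comparisons with LT-HSC share its arrays.

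Markers of maturing cells and of stem cells also differed from LT-HSC. In GMP, 5 of 5 primary granule genes, 5 of 7 monocyte and macrophage markers and 3 of 9 eosinophil, basophil and mast cell markers were called higher, and 7 of 8 stem cell genes lower. The primary granule genes averaged 11.79 to 12.32 in GMP and 6.77 to 7.05 in LT-HSC, and the stem cell genes 6.71 to 6.94 and 9.07 to 9.76. In MPP2, Mpo, Pou2af1, Slc4a1 and Itga2b were called higher and 4 of 8 stem cell genes lower. In MPP3, 3 of 9 B and plasma cell, 2 of 7 T and NK cell and 2 of 5 primary granule markers and Slc4a1 were called higher, and 6 of 8 stem cell genes and Gp5 lower. In MPP4, Mpo, Ctsg and Csf1r were called higher, and 4 of 8 stem cell genes and 2 of 6 megakaryocyte markers lower. In Gr, all 6 secondary granule, 3 of 5 primary granule, 5 of 7 monocyte, 5 of 9 B and plasma cell, 4 of 7 T and NK cell, 3 of 9 eosinophil, basophil and mast cell and 2 of 7 erythroid markers were called higher, and 7 of 8 stem cell genes and 2 of 6 megakaryocyte markers lower. Their part in the mitosis differences was not tested.

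Along the myeloid path few of the genes were called up to the pre-granulocytes. CMP differed from MPP4 in 0 of the 41 genes in both limma fits together (members 0.18, all genes 0.00 at the median), where 2.03% of all genes were called higher and 1.91% lower. With the set term alone 3 passed, Kif2c (0.75 ± 0.21, adjusted p = 0.0304), Aurkb (0.60 ± 0.12, adjusted p = 0.00383) and Ube2c (0.58 ± 0.17, adjusted p = 0.0432). At an unadjusted p under 0.05, limma with the set term gave 9 higher and 1 lower and without it 6 and 1. On median-centred arrays 9 were called higher, where 1635 of the 19938 genes were called higher and 312 lower. GMP differed from CMP in 0 genes by both limma fits, where 0.577% of all genes were called higher and 0.532% lower, and the member median was 0.20. At an unadjusted p under 0.05 the fit with sets gave 2 higher and 1 lower and the fit without them 5 higher and 0 lower, and 2 of those 5 passed after adjustment. The widest differences there were Cenpe (1.11 ± 0.44, adjusted p = 0.262) and Bub1 (1.08 ± 0.47, adjusted p = 0.327). With sets, that comparison runs from GMP 4 in set 2 to CMP in set 4 through the MPP4 arrays, which lie in both sets. Of the marker lists, 5 of 5 primary granule, 5 of 9 eosinophil, basophil and mast cell, 4 of 7 monocyte, 3 of 6 megakaryocyte and 2 of 7 erythroid genes were called higher in CMP than in MPP4, and of 8 stem cell genes 2 were higher and 4 lower. In GMP, 2 primary granule genes, 2 monocyte markers and Prg2 were higher than in CMP, and 4 stem cell genes, 2 megakaryocyte markers and Klf1 lower.

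PreGr was higher than GMP in 2 genes, Racgap1 (0.51 ± 0.17, limma adjusted p = 0.0405) and Cenpa (0.42 ± 0.11, adjusted p = 0.00703), where 7.06% of all genes were called higher. The count of 2 among the 41 does not exceed that share. The call of Racgap1 was lost on deposited values with sets (0.40 relative to all genes, adjusted p = 0.0585) and without them (adjusted p = 0.0927), on median-centred arrays (adjusted p = 0.0764) and with normalization over all probes (adjusted p = 0.0645). That of Cenpa was lost on deposited values without sets (adjusted p = 0.123) and on median-centred arrays (0.28, adjusted p = 0.0512). The member median was 0.16, against 0.01 over all genes. Racgap1 read 8.65, 8.82, 8.88 and 8.58 in GMP, below the 3 PreGr arrays given above, and Cenpa read 9.23, 9.37, 9.31 and 9.05, below them too. Leaving out 1 array gave between 0 and 4 called genes, with 0 without PreGr 1 or PreGr 2, 1 without PreGr 3 or any 1 of the GMP arrays and 4 without Gr 3. Markers of other cells also rose from GMP to PreGr: 5 of 7 T and NK cell markers, 4 of 7 monocyte and macrophage markers, 3 of 9 B and plasma cell markers, 3 of 9 eosinophil, basophil and mast cell markers and all 6 secondary granule genes were called higher and the primary granule gene Ctsg lower, and their part in these 2 differences was not tested. Of the other genes, Kif23, the kinesin of centralspindlin, differed by 0.55 ± 0.12 with the set term (adjusted p = 0.00225) and by 0.34 without it (adjusted p = 0.454), and was not called.

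The block fell between pre-granulocytes and granulocytes. Gr was lower than PreGr in 32 of the 41 genes, where 10.6% of all genes were called lower, and all 41 differences were below 0 (median -0.89, all genes 0.04). For 38 genes the Gr arrays lay below all PreGr arrays, which held for 17.1% of all genes in this direction and 23.3% in the other. Both populations lie whole in array set 5. Cdk1 fell most, by 1.47 ± 0.21 on the log2 scale (limma adjusted p = 1.61e-05), from the PreGr readings given above to 9.57, 9.32 and 8.37 in Gr. Spc24, which anchors the NDC80 complex, read 9.61, 9.04 and 8.24 in Gr and fell by 1.43 ± 0.21 (adjusted p = 1.52e-05). Every Gr array lay below every PreGr array for both genes, and Gr 3 was the lowest.

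All 6 checkpoint and APC/C genes and all 4 chromosomal passenger genes fell between PreGr and Gr. Bub1 (-1.38 ± 0.26, limma adjusted p = 0.000304) and Bub1b (-1.32 ± 0.18, adjusted p = 6.49e-06) led the first group, and Cdca8, the borealin subunit (-1.13 ± 0.24, adjusted p = 0.00102), led the second. Pbk (-1.15 ± 0.23), Kif11 (-1.14 ± 0.21), Kif4, a chromosome-bound kinesin (-1.11 ± 0.21), Top2a (-1.10 ± 0.16), Dlgap5, a spindle stabiliser (-1.03 ± 0.16), and Racgap1 (-0.98 ± 0.17) fell too. Of the 9 genes not called, Nek2 (-0.08 ± 0.21, adjusted p = 0.842) and Cenpf, a kinetochore protein of late G2 (-0.36 ± 0.25, adjusted p = 0.317), differed least. Nek2 read 7.53, 8.31 and 8.13 in PreGr and 8.15, 7.98 and 7.61 in Gr, which overlapped.

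The granulocyte arrays differed among themselves. Gr 3 was lower than the mean of Gr 1 and Gr 2 in all 41 genes, by a median of -0.80 (range -1.41 to -0.19), where the median of all genes was 0.04. Set against the PreGr mean, Gr 1 and Gr 2 together were lower in 40 genes (median -0.63) and Gr 3 in 41 (median -1.43). Without Gr 3 the number of called genes was 20, and Kif11 lost its call. The primary granule genes also differed among the Gr arrays, with averages of 10.41 in Gr 1, 9.35 in Gr 2 and 8.69 in Gr 3, against 10.96 to 11.74 in PreGr. All 5 of those genes were called lower in Gr, as were 5 of 7 monocyte and macrophage markers and 3 of 9 eosinophil, basophil and mast cell markers. The monocyte and macrophage markers averaged 8.58 in Gr 3, 9.30 in Gr 1, 8.71 in Gr 2 and 9.84 to 10.24 in PreGr. Secondary granule genes averaged 12.74 to 12.89 in Gr and at most 12.37 in PreGr, and 3 of 6 were called higher. Between PreGr and Gr 8.61% of all genes were called higher. Of 7 T and NK cell markers Cd3d, Cd3g and Cd3e were called higher in Gr and Klrb1c and Il2rb lower, with averages of 7.26 to 7.50 in Gr and 7.16 to 7.28 in PreGr. Of 9 B and plasma cell markers Ms4a1 and Cd79b were called higher, with averages of 7.86 to 8.41 against 7.79 to 8.09. Gp9 was higher and Mllt3 lower. The part of the mix of cells in these arrays was not tested.

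**Figure D5:**
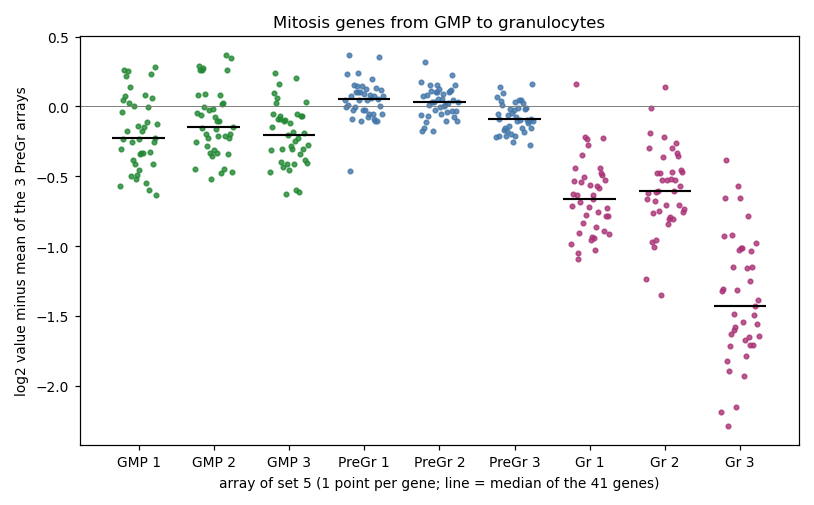
Log2 value of each of the 41 genes minus its mean over the 3 PreGr arrays (vertical axis) on the 9 arrays of set 5; each point is 1 gene and lines are medians. The points of Gr 1 and Gr 2 lie mostly below 0, and those of Gr 3 lie lower still, down to -2.29.

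Other genes of mitosis outside the 41 were read in the same comparisons. Of 32 other mitotic genes, 30 were called higher in MPP2 and 24 in MPP3 than in ST-HSC (medians 1.73 and 1.34), 5 were lower in ST-HSC than in LT-HSC and 17 lower in Gr than in PreGr. Kif15, a kinesin that acts beside Kif11, was 3.19 ± 0.25 higher in MPP2 than in ST-HSC (limma adjusted p = 1.21e-08), and Mki67, the proliferation antigen, 2.82 ± 0.13 (adjusted p = 3.96e-12). The centromere assembly and outer kinetochore genes gave 17 of 28 higher in MPP2 and 10 in MPP3 than in ST-HSC, and 17 lower in Gr than in PreGr. Condensin and cohesin genes gave 10 and 7 of 19 higher and 14 lower in the same comparisons, among them the condensin subunit gene Ncapg (2.56 ± 0.31 in MPP2 against ST-HSC, adjusted p = 4.58e-06). Between ST-HSC and LT-HSC these 2 lists gave 1 gene each, Kntc1 and Ncapg2, both lower in ST-HSC. From GMP to PreGr, Zwilch, Zwint and Cenpn of the centromere list and Pds5b of the condensin and cohesin list were lower, and 2 of the 32 other mitotic genes were higher and 1 lower. Between GMP and PreGr 8.23% of all genes were called lower and 7.06% higher, so these counts lie near or below those shares. Against LT-HSC, Gr was lower in 5 of 19 condensin and cohesin genes, in 3 of 28 centromere genes and, of the 32 other mitotic genes, in Bora. It was higher in 1 centromere gene. Of all genes, 11.4% were called lower and 11.6% higher in this comparison, so the lower counts of the centromere and other mitotic lists do not exceed that share.

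Of 15 APC/C core subunits, 2 were higher in MPP2 than in ST-HSC (median 0.18) and 7 lower in Gr than in PreGr (median -0.26). Against LT-HSC, 4 of them were lower in Gr (median -0.42), where 11.4% of all genes were called lower. In PreGr, 5 were lower than in GMP (median -0.16), where 8.23% of all genes were called lower and 0 of the 41 members were. No difference between this list and the members was tested. Anapc5 fell by 1.14 ± 0.12 on the log2 scale between PreGr and Gr (limma adjusted p = 1.46e-07). Of 14 regulators of mitotic genes, 4 were higher and 1 lower in MPP2 than in ST-HSC. Foxm1, the transcription factor of G2 genes, read 8.95, 9.33 and 9.39 in MPP2 and 7.33, 7.26 and 7.38 in ST-HSC (1.90 ± 0.15, adjusted p = 9.76e-09), and it fell from LT-HSC to ST-HSC (-1.33 ± 0.31, adjusted p = 0.0289). Mybl2, the B-Myb gene, was 0.85 ± 0.19 higher in MPP2 (adjusted p = 0.0047). Rbl2, whose p130 product represses these promoters in resting cells, was the lower one (-0.72 ± 0.14, adjusted p = 0.00129). In Gr against PreGr, Foxm1 fell (-0.57 ± 0.15, adjusted p = 0.00578) and the LIN complex gene Lin54 rose (0.50 ± 0.15, adjusted p = 0.0146). Against LT-HSC, 2 of the 14 regulators were higher in Gr and 2 lower, where 11.6% of all genes were called higher and 11.4% lower.

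The genes outside the 41 whose pattern over the 31 arrays was most like the members' mean were Kif15 (r = 0.970), Cdca2 (0.959), Ncaph (0.944), Tacc3 (0.944), Spag5 (0.943), Mastl (0.942), Ncapg (0.937), Kif14 (0.937), Foxm1 (0.934) and Kif22 (0.931), of which 9 are on the other mitosis lists. Spag5, the one that is on none of them, averaged 6.91 in ST-HSC, 7.45 in LT-HSC, 8.53 in MPP2 and 7.68 in Gr. The 31 points share arrays and sets, and the values are descriptions.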

How the data were processed

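RNA of 31 sorted samples was amplified and hybridised to single-colour arrays. The deposited table holds log2 values (range 1.39 to 14.29), which the authors made with RMA, per the submitters' processing notes; its version and settings are not given in the sources used here. Of 35557 probes, 21789 name 1 gene, 1621 several and 12147 none, and 21698 were matched to the gene table. The brightest probe was kept for the 999 genes with more than 1, giving 19938 genes.

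From the deposited values, 5 array sets were found from the array medians and exact shared values. The gene values were quantile-normalized and tested with limma 3.58.1 in R 4.3.3, once blocking on the array set and once not (18 and 22 degrees of freedom left); adjusted p-values in the text are limma's, with the set, unless stated. A call needs a Benjamini-Hochberg adjusted p under 0.05 in both fits, in the same direction. Tables and figures were made with Python 3.11.15, pandas 2.3.3, numpy 2.4.6 and matplotlib 3.10.9. The fits were tested on simulated data. Precision is limited by the number of arrays.

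All 41 members may be named; of other genes, those that lead a list, and the 10 most like the members' mean. Members and lists, partly taken over from earlier work on these files, were chosen with earlier results of these data known. Alternatives changed the scaling, the set term, the probes, dim genes, the replicate number as a block and single arrays; LT-HSC 4 left out of the fit without sets, and normalization over all probes, were added after seeing the data.

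The replicate numbers were not taken as pairs. The labels name no shared animal, and without the set term all pairs correlated above 0.1 only for MPP4 and GMP against LT-HSC (0.132 to 0.27 and 0.223 to 0.421), while with it they ran from -0.0239 to 0.0638 and from 0.0422 to 0.211.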

Additional observations from a re-analysis of the deposited data

Results flagged for a closer look

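Of 27 combinations of a gene and a population with 4 or more arrays that were examined for an outlying array, 2 had one; chance alone gives about 1 in 20 such combinations. Hmmr read 8.87 in LT-HSC 4, far above the other LT-HSC arrays. Birc5 read 10.07 in GMP 4, below the other GMP arrays. Both arrays belong to array set 2, and the cause was not tested.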

How the results depend on the processing

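Counts below are members called, and "against" puts the first population over the second. For single named genes, 2455 values kept their direction and side of the threshold and 164 lost the call. MPP2 against ST-HSC kept 40 to 41 calls under every setting that leaves out an array. The quantile-normalized fit without sets gave 31 for ST-HSC, 37 for MPP2, 29 for MPP3, 28 for MPP4, 38 for GMP and 10 for Gr against LT-HSC, 3 for MPP2 against MPP3 and 2 for GMP against CMP; the calls over all 19938 genes rose too, to 4118 higher for MPP2, 3120 for MPP3, 2753 for MPP4 and 3744 for GMP. With LT-HSC 4 also left out these were 28, 37, 31, 31, 39, 15, 4 and 2, with 2 for CMP against MPP4. Deposited values without sets gave 13 for ST-HSC against LT-HSC (11 higher and 2 lower), 41 for MPP2, 40 for MPP3, 35 for MPP4, 41 for GMP and 32 for Gr, where 18416, 17711, 15661, 11568, 16144 and 14843 of all genes were called higher, so these counts are no result about the members. The same setting gave 20 for MPP3 against ST-HSC, 0 for MPP2 against MPP3, 2 for GMP against CMP and 0 for PreGr against GMP. Deposited values with sets gave 2 for MPP2, 0 for MPP3 and 0 for MPP4 against LT-HSC, 1 lower for Gr (Ckap2; Aurkb lost its call at 0.21 and did not turn), and 9 for CMP against MPP4. Median-centred arrays gave 0 for MPP2, MPP3 and MPP4, 1 lower for Gr (again Ckap2), 9 for CMP against MPP4 and 0 for PreGr against GMP; the mean deviation was then 0.49 in MPP2, -0.09 in MPP3, a reversal, 0.49 in CMP, 0.60 in GMP and 0.74 in PreGr. The set as a random block gave 25, 7, 8, 22 and 3 for MPP2, MPP3, MPP4, GMP and Gr against LT-HSC, 5 for MPP2 against MPP3, 2 for CMP against MPP4 and 4 for PreGr against GMP. Set 2 alone, with few arrays, gave 0 for MPP3, MPP4 and GMP against LT-HSC, and set 4 alone 7 for CMP against MPP4. The set-adjusted fit alone gave 2 for MPP2 against MPP3, 3 for CMP against MPP4 and 4 for PreGr against GMP. For MPP2 against MPP3 the mean of probes gave 0, dim genes left out 2 and normalization over all probes 2; for CMP against MPP4 the last 2 settings gave 1 each, and normalization over all probes gave 1 for PreGr against GMP. The causes of these changes were not tested.

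With the replicate number as a block, counts were 3 for MPP2 against MPP3 and 2 for CMP against MPP4, 2, 7 and 1 for MPP4, GMP and Gr against LT-HSC, 41 and 39 for MPP2 and MPP3 against ST-HSC, 0 for GMP against CMP, 3 for PreGr against GMP and 36 for Gr against PreGr. The block could not be fitted for ST-HSC, MPP2 and MPP3 against LT-HSC.

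Leaving out 1 array gave 3 to 20 for ST-HSC, 3 to 10 for MPP2, 1 to 3 for MPP3, 1 to 4 for MPP4, 5 to 10 for GMP and 1 to 4 for Gr against LT-HSC. It gave 35 to 39 for MPP3 against ST-HSC, 0 to 3 for MPP2 against MPP3, 0 to 1 for CMP against MPP4, 0 to 0 for GMP against CMP, 0 to 4 for PreGr against GMP and 20 to 35 for Gr against PreGr. Comparisons with LT-HSC could not be fitted without LT-HSC 4, those of ST-HSC, MPP2 and MPP3 not without MPP3 3, and those of GMP and Gr, with GMP against CMP, not without GMP 4.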
